A study of Mus musculus with 12 samples.

Results

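Transcription factors of the lung mesenchyme were followed in RNA sequencing of mouse lung tumors and normal mouse lung. The set named 9 genes, namely Tbx2, Tbx3, Tbx4, Tbx5, Foxf1, Tcf21, Hoxa5, Hoxa4 and Meox2, and was taken from the table by gene symbol. The table lists 30399 genes and holds 5 of the 9, which are Tbx2, Tbx3, Tbx4, Tbx5 and Meox2. Foxf1, Tcf21, Hoxa5 and Hoxa4 were not analysed here. The set was proposed because Tbx2 and Tbx4 were much lower in the tumors, so the levels of its members in tumors and normal lung are given as a description, with no test.

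The tumors come from a study that makes lung cancer models in mice with CRISPR/Cas9, a nuclease directed by a guide RNA that disables a chosen gene, delivered without a virus. The samples are 5 normal lungs and 7 tumors, with RNA selected by its poly-A tail. The strain, age and sex of the mice, the genes edited in each tumor and any treatment of the normal lungs are not given in the sources used here. Titles of tumors 3 and 4 share the number 159 and those of tumors 5, 6 and 7 the number 201, so the tumors carry 4 distinct numbers. The labels do not say whether a number is an animal. A Spanish word for trachea stands in the titles of tumors 1 and 7, a word for lung in those of tumors 3, 4, 5 and 6, and neither in that of tumor 2.

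T-box factors bind DNA through a shared domain, the T-box, and the 4 studied here are encoded as 2 neighbouring pairs, Tbx2 with Tbx4 and Tbx3 with Tbx5. In the developing lung all of them are made in the mesenchyme, where Tbx4 and Tbx5 act in the outgrowth and branching of the lung bud, partly through the growth factor Fgf10, and Tbx2 and Tbx3 sustain proliferation of the mesenchyme. Meox2 is a homeodomain factor of mesoderm, known for holding vascular cells in a resting state.

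Because the 4 T-box genes are related, reads could in principle be shared between them. The stretches of coding sequence below, from the GENCODE M21 transcripts of GRCm38, are shown because they hold the longest run of identical bases between Tbx2 and Tbx3. The identical run is in capitals, with 30 bases on either side.
Tbx2: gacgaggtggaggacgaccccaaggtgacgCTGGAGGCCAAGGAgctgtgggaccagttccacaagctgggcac
Tbx3: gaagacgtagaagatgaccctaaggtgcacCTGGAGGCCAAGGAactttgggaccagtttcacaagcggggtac
The run is 14 bases long. No stretch of 150 bases, the length of a read, was identical between any of the 4 T-box genes, nor between Meox2 and its relative Meox1. Exons of Tbx3 share 115 bases, 1.74% of their length, with the antisense gene Tbx3os1, and reads from that overlap cannot be told apart because use of the strand in counting is not given in the sources used here.

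Depth ran from 11126432 to 17032234 reads in normal lung and from 13093843 to 24217633 reads in tumors, and 3 reads equalled 3.23 to 4.85 normalized counts in the former and 1.90 to 3.57 in the latter. Over all 23674 genes tested, 24.0% were called higher in tumors and 24.5% lower by limma, where a call needs a Benjamini-Hochberg adjusted p below 0.05 together with a log2 difference of 1 or more in size. The tissue labels were checked against marker genes. Summed over 7 lung epithelium markers, normal lungs held 271904 to 486396 normalized counts and tumors 5248 to 17143. Most of the tumor sum was Nkx2-1, which was not called, at 7307 to 9000 in normal lung and 4566 to 14594 in tumors. In contrast, 7 neuroendocrine markers summed to 113 to 167 in normal lung and 27811 to 113778 in tumors. A level from 4 Y-linked genes, as the mean of log2(value + 1), was 9.18 to 9.43 in 4 normal lungs and 9.14 in tumor 1, and was 0 in normal lung 3 and 0 to 1.48 in the other 6 tumors. The labels do not explain the Y-linked difference. When that level was entered as a covariate, an alternative added after seeing the data, limma called 4964 genes higher and 5120 lower, and the log2 differences of the 5 transcription factors ran from -6.54 for Tbx4 to -3.75 for Tbx3.

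All 5 genes were lower in tumors. Tbx4 was lower by 87.9-fold, Tbx2 by 28.1-fold, Meox2 by 20.4-fold, Tbx3 by 13.1-fold and Tbx5 by 5.77-fold, comparing means of normalized counts. A mean over 10-fold lower, as in all of them but Tbx5, was found for 6.76% of all tested genes. For Tbx2, Tbx3, Tbx4 and Meox2 every tumor lay below every normal lung, as 18.4% of all tested genes did, and for Tbx5 that held in 6 of 7 tumors. In bulk tissue such as this, fewer cells of a type and less RNA per cell cannot be told apart.

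**Figure D1:**
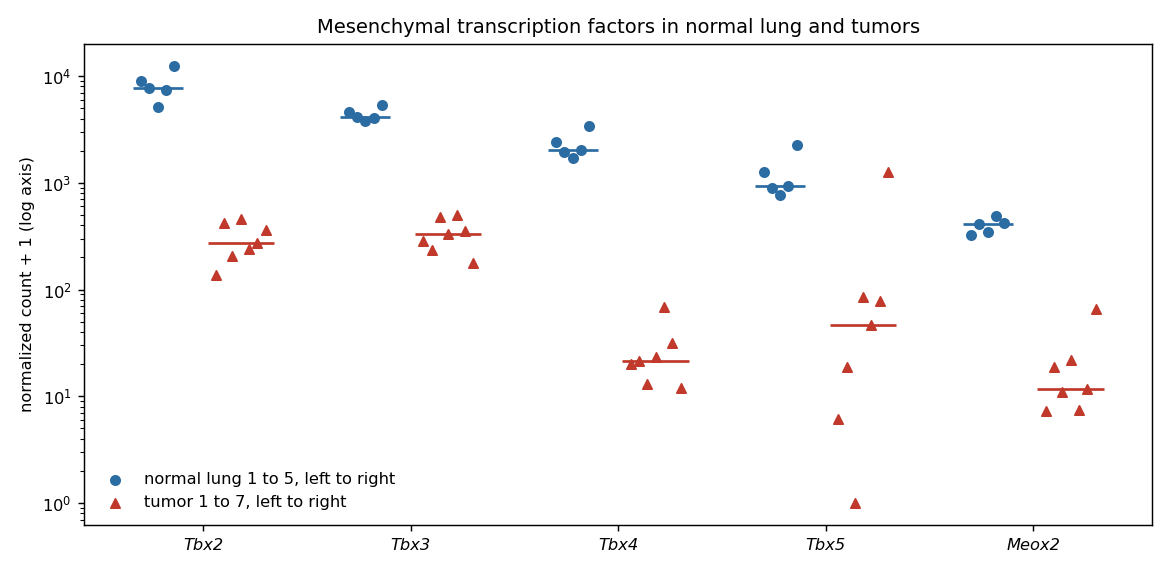
Normalized counts plus 1 on a log axis for each gene, with the 5 normal lungs as blue circles, the 7 tumors as red triangles and group medians as lines. Tbx2, Tbx3, Tbx4 and Meox2 separate into an upper and a lower group, while the Tbx5 triangle of tumor 7, at 1259 normalized counts, stands among the normal lungs.

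Tbx2 (ENSMUSG00000000093) encodes a repressor best known for blocking senescence. Normal lungs 1 to 5 held 9031, 7674, 5108, 7444 and 12456 normalized counts of it, whereas tumors 1 to 7 held 135, 416, 204, 457, 239, 271 and 357. The lowest normal lung stood 11.2-fold above the highest tumor. The means were 8343 ± 2698 (SD, n = 5) and 297 ± 117.1 (SD, n = 7), and the log2 difference was -4.85 (SE 0.30), at percentile 2.17 of the log2 differences of all tested genes, counted from the largest fall.

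Tbx3 (ENSMUSG00000018604), the closest relative of Tbx2 and likewise a repressor, was the steadiest of the 5 among normal lungs. The values of normal lungs 1 to 5 were 4620, 4128, 3828, 4020 and 5385 normalized counts, those of tumors 1 to 7 only 282, 233, 473, 328, 497, 354 and 176. Normal lungs and tumors were separated by a gap of 7.69-fold, narrower than that of Tbx2. Means of 4396 ± 625 (SD, n = 5) and 335 ± 118 (SD, n = 7) gave a log2 difference of -3.78 (SE 0.24).

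Tbx4 (ENSMUSG00000000094), an activator that marks the lung and hindlimb mesoderm, showed the deepest fall. Normal lungs 1 to 5 held 2390, 1957, 1701, 2021 and 3412 normalized counts, and tumors 1 to 7 held 19.0, 20.3, 11.9, 22.5, 67.9, 30.3 and 10.9. The tumor values rest on 30, 17, 12, 25, 84, 45 and 17 reads, all above the 3 reads taken as the limit of detection, the 12 of tumor 3 being less certain because its reads failed a check of recovery. Tumor 5 was the highest of the tumors and still 25.0-fold below the lowest normal lung. With means of 2296 ± 671 (SD, n = 5) and 26.1 ± 19.6 (SD, n = 7), the log2 difference was -6.60 (SE 0.39), at percentile 0.342 of all tested genes.

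Of the 5 genes, the RefSeq promoter table of GRCm38.p6 holds a window for Tbx4 and Meox2, each from 250 bases before an annotated start to 50 bases after it. The window of Tbx4, chr11:85896515-85896814 on the plus strand, is shown for the sequence at the start of the gene with the deepest fall. Motifs were searched on both strands, namely the T-box element GGTGTGA, the forkhead element TGTTTAC, the E-box CAGCTG, the homeodomain element TAATTA and the GC box GGGCGG, and matches are in capitals.
Tbx4: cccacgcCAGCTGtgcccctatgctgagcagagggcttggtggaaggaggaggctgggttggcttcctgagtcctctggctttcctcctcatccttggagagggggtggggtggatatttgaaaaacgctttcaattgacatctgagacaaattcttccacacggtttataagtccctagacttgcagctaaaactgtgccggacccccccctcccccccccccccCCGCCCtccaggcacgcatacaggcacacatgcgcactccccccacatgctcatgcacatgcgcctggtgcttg
This window holds 1 E-box, 243 bases before the start, and 1 GC box on the opposite strand, 24 bases before it. Of 32851 such windows in the table, 16.3% hold the E-box, 35.7% the GC box, 3.98% the T-box element, 3.65% the forkhead element and 5.29% the homeodomain element. G and C make up 59.0% of the Tbx4 window, with 8 CpG, against medians of 52.7% and 7 over all windows. A match of letters is no evidence of binding.

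Tbx5 (ENSMUSG00000018263), known for its part in heart and forelimb formation as well as in the lung bud, was the gene that varied most among tumors. From lung 1 to lung 5 the normal values were 1268, 896, 772, 931 and 2273 normalized counts, and from tumor 1 to tumor 7 the values were 5.06, 17.9, 0, 84.4, 45.3, 76.8 and 1259. Tumor 7 lay within the range of normal lung and the other 6 tumors below it. Tumor 3 is listed at 0, where 3 reads would equal 2.97 normalized counts if its reads were rightly recovered, and tumor 1 had 8 reads.

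Means for Tbx5 were 1228 ± 612 (SD, n = 5) and 213 ± 463 (SD, n = 7), and the log2 difference was -5.09 (SE 1.29). Without tumor 7 the tumor mean was 38.2 ± 36.5 (SD, n = 6), 32.1-fold below normal lung, and the log2 difference -5.97. Tumor 7 also stood apart in markers of several cell types, cardiac muscle above all. The 7 of them in the table, among them Myh6, Tnnt2 and Nppa, summed to 40942 normalized counts in tumor 7, to 595 to 2957 in the other tumors and to 492 to 4624 in normal lung. Tbx20, a T-box factor of the heart, was at 838 normalized counts in tumor 7, at most 63.3 in the other tumors and 2.82 to 80.8 in normal lung. Tumor 7 was likewise the highest tumor in the marker sums of smooth muscle and pericytes (12670 normalized counts, at most 4955 in the others) and leukocytes (10717, at most 2861). The same held for mesothelium (1105, at most 406), fibroblasts (31912, at most 22307), endothelium (5325, at most 3399) and thyroid (486, at most 167). Tumor 7 was the lowest tumor in the sum of neuroendocrine markers (27811, at least 38643 in the others) and in Nkx2-1 (4566, at least 10405). The part of these cell types in the Tbx5 level of tumor 7 was not tested.

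Meox2 (ENSMUSG00000036144) was the lowest of the 5 genes in normal lung, in counts as well as per length of exon. For normal lungs 1 to 5 the table gives 321, 413, 342, 492 and 415 normalized counts and for tumors 1 to 7 it gives 6.33, 17.9, 9.91, 20.7, 6.47, 10.8 and 64.0, the latter resting on 8 to 100 reads. Tumor 7 was the highest of the tumors, as for Tbx5, but lay 5.01-fold below the lowest normal lung. The means were 397 ± 67.8 (SD, n = 5) and 19.4 ± 20.4 (SD, n = 7), with a log2 difference of -4.69 (SE 0.48). Without tumor 7 the mean of the other 6 tumors was 33.1-fold below normal lung, and their highest value was 20.7.

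For Meox2 the RefSeq window is chr12:37108290-37108589 of GRCm38.p6 on the plus strand, with the motifs listed for Tbx4 in capitals.
Meox2: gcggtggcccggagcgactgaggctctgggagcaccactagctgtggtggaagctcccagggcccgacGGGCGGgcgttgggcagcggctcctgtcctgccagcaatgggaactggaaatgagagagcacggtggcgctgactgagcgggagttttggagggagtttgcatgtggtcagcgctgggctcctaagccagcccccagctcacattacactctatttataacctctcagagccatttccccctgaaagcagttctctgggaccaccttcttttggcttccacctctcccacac
It holds 1 GC box, 182 bases before the start, and none of the other 4 motifs. Its G and C content was 60.7%, with 12 CpG.

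Levels of different genes can be compared only per length of exon. Per kilobase of exon in the M21 annotation, Tbx2 was the highest in normal lung at 2301 ± 744 normalized counts (SD, n = 5), followed by Tbx4 at 675 ± 197, Tbx3 at 664 ± 94.4, Tbx5 at 263 ± 131 and Meox2 at 168 ± 28.7. Neighbours in this order overlapped in 2 places, since Tbx4 exceeded Tbx3 in 2 of 5 normal lungs and Tbx5 exceeded Meox2 in 4 of 5. In tumors the order of the medians was Tbx2 at 74.7, Tbx3 at 49.5, Tbx5 at 9.69, Tbx4 at 5.95 and Meox2 at 4.57 normalized counts per kilobase.

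Tbx4 thus moved from the level of Tbx3 to far below it. Their ratio per kilobase, Tbx4 over Tbx3, was 0.865 to 1.23 among normal lungs and 0.0490 to 0.266 among tumors, with no overlap. Against its neighbour in the genome, the ratio of Tbx2 over Tbx4 was 2.82 to 3.68 in normal lungs and 3.29 to 30.7 in tumors, with a tumor median of 16.1. Tbx2 exceeded Tbx3 per kilobase in all 5 normal lungs, by 2.44-fold to 4.23-fold, but in 4 of 7 tumors. The set was proposed because Tbx2 and Tbx4 were much lower in the tumors. The separation of Tbx4 from Tbx3 was thus largely set in advance and is description only.

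Normal lungs differed among themselves in a partly shared order for the T-box genes. Lung 2 stood above lung 4 for Tbx2 and Tbx3 but below it for Tbx4 and Tbx5. All 4 genes were highest in lung 5, next highest in lung 1 and lowest in lung 3. That order was shared by 3.47% of all tested genes and noticed after the values were seen, and 23.9% were highest in lung 5. Relative to the mean of the normal lungs, lung 5 stood at 1.49 for Tbx2, 1.22 for Tbx3, 1.49 for Tbx4 and 1.85 for Tbx5, and lung 3 at 0.612, 0.871, 0.741 and 0.629. Tbx3os1, the antisense neighbour of Tbx3, followed the same order with 1.97 in lung 5 and 0.392 in lung 3. Meox2 did not, being highest in lung 4 and lowest in lung 1.

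Lung 5 also had the highest sum of cardiac muscle markers among normal lungs, 4624 normalized counts, and the highest sum of the collagens Col1a1, Col1a2 and Col3a1, 13916. It is the only normal lung whose title holds a word for lung. Lung 3 was the shallowest library and the one without Y-linked reads. The part of these differences in the order was not tested.

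**Figure D2:**
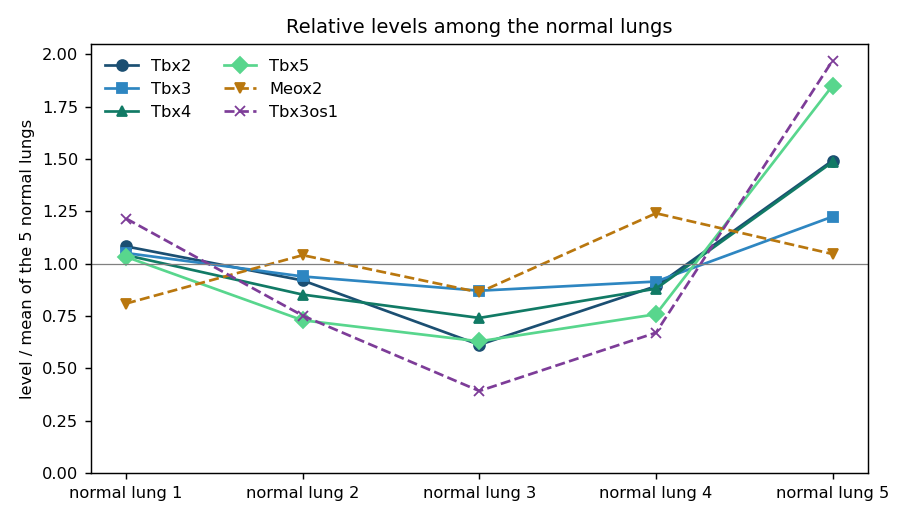
Level of each gene in normal lungs 1 to 5, divided by its mean over the 5, with Meox2 and Tbx3os1 as dashed lines. The T-box genes and Tbx3os1 peak in lung 5, from 1.22 for Tbx3 to 1.97 for Tbx3os1, while Meox2 does not.

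Tumors whose titles share a number were not alike in every gene. Between tumors 3 and 4 the higher value was 2.24-fold the lower for Tbx2, 1.44-fold for Tbx3, 1.89-fold for Tbx4 and 2.08-fold for Meox2, and Tbx5 was 0 in the former and 84.4 in the latter. Among tumors 5, 6 and 7 the highest was 1.49-fold the lowest for Tbx2, 2.82-fold for Tbx3, 6.24-fold for Tbx4, 9.90-fold for Meox2 and 27.8-fold for Tbx5. Tbx2 was the steadiest of the 5 in the group numbered 201 and Tbx3 in that numbered 159.

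The word for trachea or lung in the tumor titles was not used in choosing the genes, so this comparison could be tested. Tumors 1 and 7 were compared with tumors 3 to 6 by limma. None of the 5 genes was called, and over 23282 tested genes 0.0% were. For Tbx3 the log2 difference, trachea minus lung, was -0.86 (SE 0.32, adjusted p = 0.511), with both trachea-titled tumors, 282 and 176, below all 4 lung-titled tumors. For Tbx2 it was -0.34 (SE 0.49, adjusted p = 0.841), for Tbx4 -0.88 (SE 0.75, adjusted p = 0.740) and for Meox2 0.86 (SE 0.94, adjusted p = 0.790), all by limma.

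Tbx5 gave 1.89 (SE 2.49, adjusted p = 0.827 by limma), and its sign rested on tumor 7, being -1.96 without tumor 7 and 5.74 without tumor 1. At an unadjusted p under 0.05 limma found 2086 of all tested genes and edgeR 1407. Neither called any after adjustment, while DESeq2, which like edgeR was run without tumor 3, called 277. With tumor 7 left out limma called 290, which set tumor 1 alone against the lung-titled tumors and assumes that it varies as they do. Tumor 7 shares its title number with the lung-titled tumors 5 and 6. In limma fits added after seeing the data, with tumors of the same number correlated or with the number as a term, no gene was called either, while 2522 and 4454 had an unadjusted p under 0.05. With the number as a term, which rests on tumor 7 against tumors 5 and 6, the log2 difference was 0.49 for Tbx2, the opposite sign, and -1.25 for Tbx3 (adjusted p = 0.637 and 0.221 by limma). It was -1.97 for Tbx4, 4.39 for Tbx5 and 2.79 for Meox2 (adjusted p = 0.273, 0.399 and 0.211 by limma). With 2 trachea-titled samples, a difference that misses the threshold does not show that the sites are alike.

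Other genes of the T-box family were called in both directions. Of 12 others in the table, 4 were higher in tumors, 2 lower and 6 not called, against the 24.0% and 24.5% of all tested genes, and their median log2 difference was 0.34 against 0.04 over all genes. Tbx1, a factor of pharyngeal development, rose from 688 ± 115.9 normalized counts (SD, n = 5) to 2485 ± 1173 (SD, n = 7), a log2 difference of 1.72 (SE 0.31, adjusted p = 3.14e-04 by limma). Tbx15, a factor of skeletal and skin mesenchyme, rose from 22.3 ± 15.7 to 435 ± 136, a log2 difference of 4.38 (SE 0.38, adjusted p = 5.09e-07 by limma). Every tumor exceeded every normal lung for both, as for 20.1% of all tested genes.

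Tbr1, a neuronal T-box factor, was at 0 to 2.30 normalized counts in normal lung, under the level of 3 reads, and at 16.7 to 719 in tumors with a median of 25.8. The T-box factors of lymphocytes were lower. Eomes fell from 65.4 ± 22.6 normalized counts to 7.10 ± 13.2, a log2 difference of -4.15 (SE 0.77, adjusted p = 3.96e-04 by limma). Tbx21 had a log2 difference of -2.02 (SE 0.69, adjusted p = 0.0216 by limma), with overlapping groups, and the call was lost without normal lung 3 (adjusted p = 0.0526) and in edgeR, which was run without tumor 3 (-0.86, adjusted p = 0.334). Leukocyte markers fell with them, 6 of 6 by limma and 2 of 6 by edgeR, from sums of 82334 to 162575 normalized counts to 292 to 10717, at most 2861 without tumor 7.

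Tbx18 and Tbx20, known from the epicardium and heart, were not called. Tbx18 averaged 16.0 ± 14.3 normalized counts over normal lungs against 34.5 ± 33.1 over tumors (adjusted p = 0.252 by limma). Tbx20 gave a log2 difference of -0.46 (SE 1.42, adjusted p = 0.795 by limma), with tumor 7 far above the rest.

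**Figure D3:**
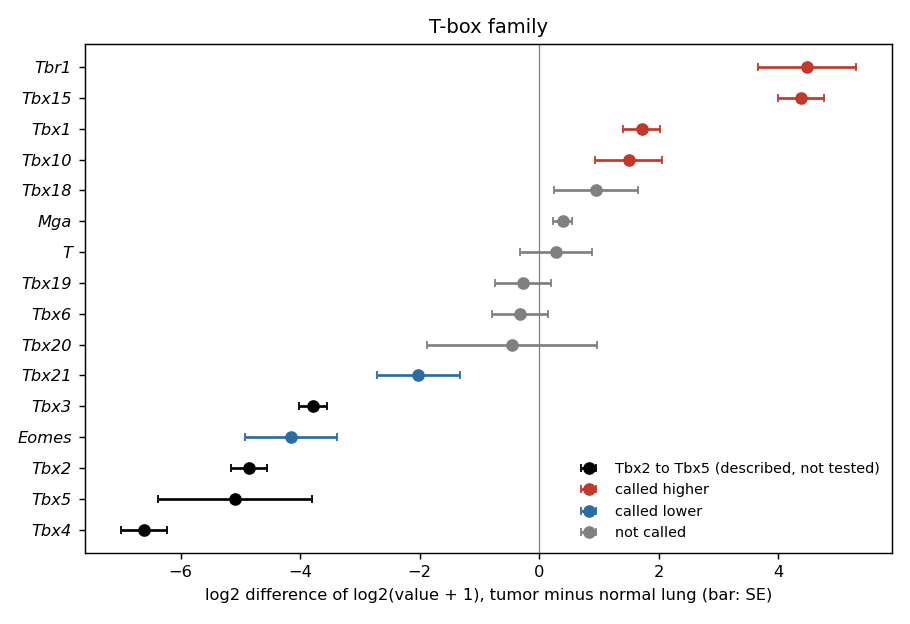
Log2 difference, tumor minus normal lung, with SE bars, for the 16 T-box genes in the table, in order of size. Tbx2, Tbx3, Tbx4 and Tbx5 (black, described only) run from -6.60 to -3.78, while Tbx1 at 1.72, Tbx15 at 4.38 and Tbr1 at 4.48 lie on the other side of 0.

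Relatives of Meox2 and of the members not analysed here are in the table too. Of 7 such paralogs, 4 were lower, 1 higher and 2 not called, with a median log2 difference of -1.20. Over all tested genes 24.5% were lower and 24.0% higher. Meox1, the nearest relative of Meox2 and a factor of the somites, fell from 386 ± 138 normalized counts (SD, n = 5) to 107 ± 81.7 (SD, n = 7), a log2 difference of -2.09 (SE 0.45, adjusted p = 0.00123 by limma), with no tumor reaching the lowest normal lung. Foxf2, the paralog of Foxf1 and a forkhead factor of gut and lung mesenchyme, fell from 1380 ± 346 to 325 ± 370, a log2 difference of -3.23 (SE 0.94, adjusted p = 0.00882 by limma). Its tumors spread from 6.96 to 886 normalized counts, and the highest overlapped the normal lungs. Foxc1, a forkhead factor of mesoderm and vessels, rose from 172 ± 49.7 to 869 ± 458, a log2 difference of 2.21 (SE 0.34, adjusted p = 9.42e-05 by limma).

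Hox genes assign position along the body axis, and the lung expresses mainly those of the anterior and central paralog groups. Of 9 tested genes of these groups, 3 were lower, none higher and 6 not called. Over all tested genes 24.5% were lower and 24.0% higher, so with few genes 3 of 9 is near the general share. The median log2 difference of the 9 was -0.91. Those named here lie in the same cluster as Hoxa5 and Hoxa4. Hoxa7 fell from 286 ± 96.5 to 18.7 ± 27.0 normalized counts (log2 difference -4.81, SE 0.80, adjusted p = 1.73e-04 by limma) and Hoxa2 from 120 ± 25.5 to 21.2 ± 34.3 (adjusted p = 7.03e-04). Hoxa2 had overlapping groups.

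Hoxb4, the relative of Hoxa4 in another cluster, was not called (log2 difference -1.90, SE 1.18, adjusted p = 0.178 by limma). Its normal lungs were close together, 819 ± 58.6 normalized counts (SD, n = 5), whereas tumors ran from 13.9 to 3470. Without tumor 2 it gave -2.57 (adjusted p = 0.0481 by limma). Of 6 tested posterior Hox genes, 1 was called higher and 1 lower, and both were under the level of 3 reads in every normal lung. The summed level of all 12 posterior genes in the table was 37.6 to 74.8 normalized counts over normal lungs and 3.80 to 27285 over tumors, highest in tumor 2.

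Signals exchanged between mesenchyme and epithelium were lower in 11 of 15 genes, higher in none and not called in 4, with a median log2 difference of -2.34. Over all tested genes 24.5% were lower and 24.0% higher, and the list was chosen with earlier results of these data known. Among the 11, Fgf2 was at 2.15 to 8.08 normalized counts in normal lung and Rspo2 at 2.58 to 17.2. Both were at 2.58 in normal lung 1, under its level of 3 reads (3.87). Bmp4, a growth factor acting on the distal epithelium, fell from 2360 ± 342 normalized counts (SD, n = 5) to 51.7 ± 42.6 (SD, n = 7), a log2 difference of -6.05 (SE 0.64, adjusted p = 2.77e-06 by limma). Bmp5, of the same family, fell from 854 ± 172 to 8.66 ± 4.41, a log2 difference of -6.61 (SE 0.39, adjusted p = 1.31e-08 by limma), about the size of the fall of Tbx4.

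Wnt2, a mesenchymal ligand needed to specify lung, fell from 440 ± 153 to 8.75 ± 8.60, a log2 difference of -5.98 (SE 0.65, adjusted p = 4.03e-06 by limma). Hhip, an inhibitor of Hedgehog ligands, gave -5.39 (SE 0.89, adjusted p = 1.63e-04 by limma). Fgf10, the ligand downstream of Tbx4 and Tbx5 in the lung bud and singled out after its values were seen, fell from 395 ± 34.5 to 27.4 ± 41.9 normalized counts (log2 difference -5.32, SE 0.98, adjusted p = 3.87e-04 by limma). Every tumor lay below every normal lung for these 5 genes, as for 18.4% of all tested genes. Bmp4, Bmp5, Wnt2 and Hhip had been picked from the list for their large changes.

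**Figure D4:**
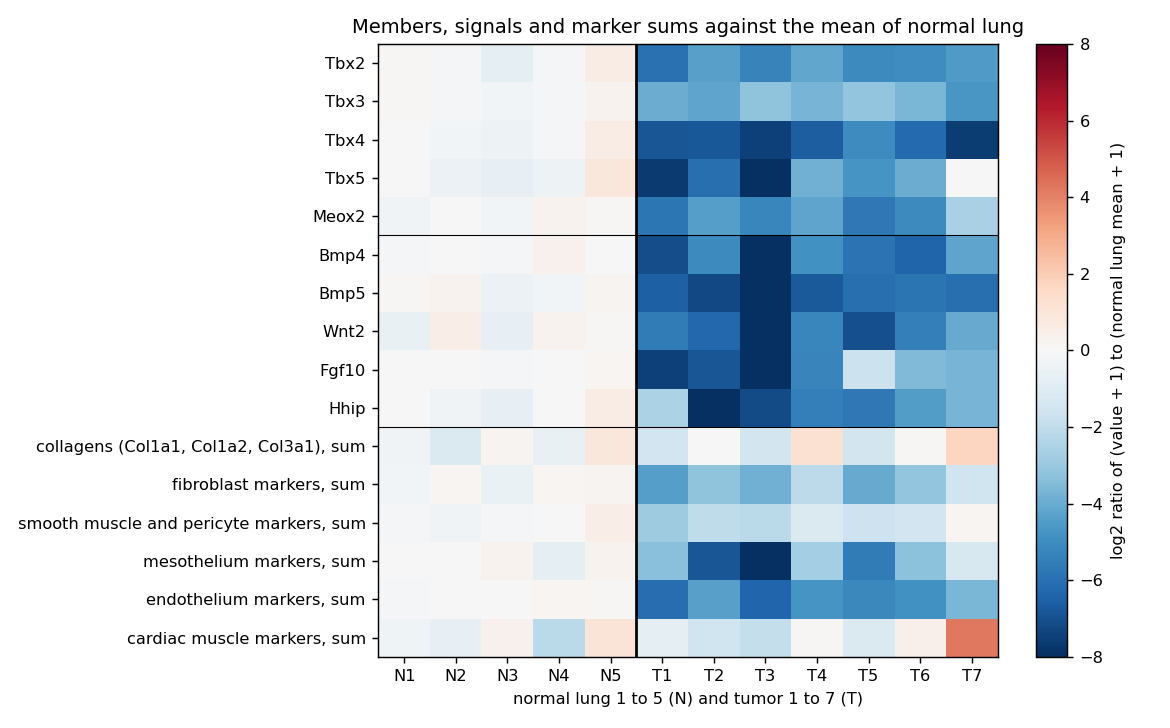
Log2 ratio of each value plus 1 to the normal lung mean plus 1, for the 5 transcription factors, 5 signals and 6 summed marker levels (rows) in 5 normal lungs and 7 tumors (columns), blue lower and red higher. The transcription factors and signals are blue across the tumors except Tbx5 in tumor 7, while the collagen sum, 2543 to 24423 normalized counts in tumors, falls on both sides of normal lung.

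Markers of mesenchymal cells moved with the transcription factors, but not all of them. Of 10 fibroblast markers 5 were lower, none higher and 5 not called (median log2 difference -2.21), beside 24.5% lower over all tested genes. Their sum was 66443 to 112231 normalized counts across normal lungs, 4514 to 31912 across tumors. Inmt gave a log2 difference of -9.12 (SE 0.81, adjusted p = 5.29e-07 by limma), Mfap4 -6.04 (SE 0.83, adjusted p = 3.19e-05 by limma), Npnt -5.36 and Gpc3 -2.95, and Pdgfra, named after its values were seen, -2.52 (adjusted p = 0.0044 by limma). The 3 collagens did not pass the test, with log2 differences of 0.72 for Col1a1, -0.25 for Col1a2 and -0.38 for Col3a1, whose adjusted p were 0.330, 0.707 and 0.611 by limma.

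Smooth muscle and pericyte markers were lower in 7 of 9 genes by limma and in 4 by edgeR, and their sums went from 9161 to 15971 down to 1550 to 12670 normalized counts, the tumors reaching at most 4955 without tumor 7. Mesothelium markers were lower in 4 of 5, from 1547 to 3252 down to 6.94 to 1105, or at most 406 without tumor 7. Endothelium markers, of a cell type that also makes Meox2, were lower in 8 of 8, from 61836 to 74186 down to 853 to 5325 normalized counts, at most 3399 without tumor 7. Over all tested genes 24.5% were lower by limma. The part of these cell types in the levels of the transcription factors was not tested.

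The collagens named above, which fibroblasts make in bulk, gave overlapping sums, 3346 to 13916 normalized counts over normal lungs and 2543 to 24423 over tumors. They were chosen as a reference after their values were seen. Per 1000 collagen counts, Tbx2 was at 584 to 2294 in normal lung and 14.6 to 88.1 in tumors, Tbx3 at 387 to 1234 and 7.21 to 184, and Tbx4 at 194 to 585 and 0.446 to 25.1. Tbx5 was at 88.3 to 268 and 0 to 51.6, and Meox2 at 29.8 to 123 and 1.19 to 3.71. On this scale all 7 tumors lay below all 5 normal lungs for each of the 5 genes. The set was proposed for a fall and the reference genes were not called lower, so this separation was largely set in advance. For Tbx5 in tumor 7 it rests on that tumor having the highest collagen sum, 24423. Whether the genes fell beyond a loss of fibroblasts was not tested.

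Tissues next to the airway were checked in the same way. Tracheal cartilage markers were higher in 3 of 6 genes, and their sum was 5.64 to 25.8 normalized counts over normal lungs, 113 to 610 over tumors. Thyroid markers were higher in 2 of 4 tested genes. Their sums were 73.6 to 126 in normal lung and 70.9 to 486 in tumors, or at most 167 without tumor 7. None of 7 cardiac muscle markers was called. Lung epithelium markers were lower in 6 of 7 and neuroendocrine markers higher in 7 of 7.

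Genes beside the transcription factors in the genome were taken in order from the annotation, 5 protein-coding genes of the table on either side, a rule added after the data were seen. Of 31 such neighbours 10 were higher, 4 lower and 17 not called by limma, beside 24.0% higher and 24.5% lower over all tested genes. Log2 differences of the neighbours ran from -3.45 to 3.61. The 4 T-box genes and Meox2 lay below every one of these neighbours. That is description only, because the set was proposed for the fall of Tbx2 and Tbx4.

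Around Tbx2 and Tbx4 the 11 neighbours included 4 higher and 2 lower. Bcas3, on the outer side of Tbx2, was not called (-0.41, adjusted p = 0.125 by limma), and Brip1, a helicase of DNA repair on the outer side of Tbx4, was higher (3.61, SE 0.26, adjusted p = 6.47e-08 by limma). Gm11444, between Tbx2 and Tbx4, fell from a mean of 11.7 to one of 1.73 normalized counts, below the level of 3 reads (-2.22, adjusted p = 1.95e-04 by limma). Around Tbx3 and Tbx5, 5 of 10 neighbours were higher and none lower, and the nearest, Med13l at -0.81 (adjusted p = 0.0110 by limma) and Rbm19 at 0.27 (adjusted p = 0.216 by limma), were not called.

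Beside Meox2, Agmo, which encodes an ether lipid monooxygenase, fell from 647 to 83.4 normalized counts (log2 difference -3.45, SE 0.58, adjusted p = 1.70e-04 by limma), and Ispd on the other side was not called (0.25, adjusted p = 0.475 by limma). Of the noncoding neighbours listed for these genes, 3 of 4 were lower and 1 not called, beside 24.5% lower over all tested genes. Hoxaas3 and Tbx3os2, named because they were called, did not exceed 8.46 normalized counts in any library. Tbx3os1 fell from 813 ± 503 normalized counts (SD, n = 5) to 56.4 ± 26.5 (SD, n = 7), a log2 difference of -3.78 (SE 0.45, adjusted p = 8.35e-06 by limma), beside -3.78 for Tbx3.

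**Figure D5:**
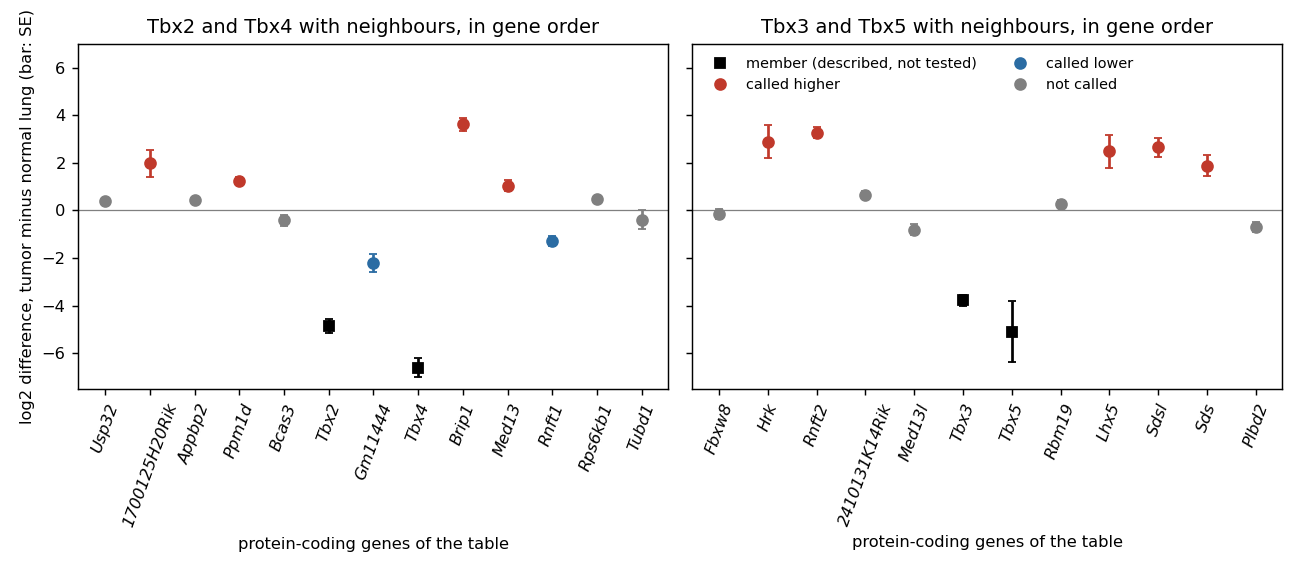
Log2 difference, tumor minus normal lung, with SE bars, of protein-coding genes in their order along the genome around Tbx2 and Tbx4 (left) and Tbx3 and Tbx5 (right), transcription factors as black squares. Brip1 at 3.61 stands next to Tbx4 at -6.60, and Med13l at -0.81 next to Tbx3 at -3.78.

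Genes whose pattern was most like each transcription factor were ranked by Pearson's r of log2(value + 1) over the 12 samples, among 16517 genes. The difference between normal lung and tumor sets most of each r, so r over the 7 tumors stands beside it, as a description with no test. For Tbx2 the first 3 were Gm32200 (0.991, 0.781 over tumors), the leptin receptor Lepr (0.990, 0.857) and the prostaglandin transporter Slco2a1 (0.990, 0.906). For Tbx3 they were Snx25 (0.991, 0.855), Akap5 (0.989, 0.716) and the water channel Aqp5 (0.987, 0.730).

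Tbx4 was followed most closely by Akap5 (0.994, 0.851 over tumors), Pi4k2b (0.993, 0.868) and the laminin chain Lama3 (0.992, 0.752), so Akap5 stood among the first 3 of both Tbx3 and Tbx4. For Tbx5 they were Bnc2 (0.990, 0.988), Dysf (0.986, 0.983) and Adamtsl4 (0.982, 0.975), for which the likeness was nearly as high within the tumors, where tumor 7 is the far point. For Meox2 they were Arl4d (0.997, 0.986), Rab38 (0.993, 0.970) and Cyth3 (0.993, 0.942).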

How the data were processed

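The authors deposited 1 table of gene values for 12 samples, a normalized read count signal in which every value lay within 0.001 read (in proportion above 1000 reads) of a whole multiple of the smallest step of its sample. Depth was recovered from that step, with tumor 3 not accepted in a further check. Counting with featureCounts, scaling with DESeq2 and build GRCm39 are named in the submitters' processing notes. The aligner, annotation, version numbers and use of the strand are not given in the sources used here. Symbols came from GENCODE M21, which named 29982 of 30399 identifiers. The 5 transcription factors found were described without a test. All other tumor against normal results come from limma 3.58.1 (R 4.3.3; lmFit, eBayes with trend, Benjamini-Hochberg adjustment) on log2(value + 1) over the 23674 genes with a mean of at least 1, a scale that understates changes of low genes. Fold values compare means. The table called for the normalized form of the test foreseen. Scripts were tested on simulated data.

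Samples were grouped by the tissue label and numbered in listing order. Nothing says that samples are separate animals, so p-values measure only the spread between these samples. The 25 pairs of libraries within a group that leave out tumor 3 differed beyond counting noise, with a chi-square of at least 18.4 for each degree of freedom. The members and gene lists were chosen with earlier results of these data known. Genes named are the members, up to 4 per list and direction with the largest changes, close relatives of the members, and the 3 most alike per member. Some genes under this rule are not reported here. Levels of 3 reads and other limits cover counting error only, since reads are not independent molecules. Alternatives covered edgeR 4.0.16 and DESeq2 1.42.0 on recovered reads of 11 samples (tumor 3 left out), quantile and equal-total scaling, filters, a pseudocount of 0.1, tumors of 1 title number averaged or correlated, and each sample left out. A Y-linked covariate and 2 fits of the title comparison by title number were added after seeing the data.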

Additional observations from a re-analysis of the deposited data

Results flagged for a closer look

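In 8 of 74 groups of samples examined, the highest or lowest sample stood apart from the others by more than Dixon's 95% limit, where chance alone gives about 1 in 20, or 3.7. The causes were not tested. Among the transcription factors, Tbx5 was at 1259 normalized counts in tumor 7 (next 84.4), Meox2 at 64.0 in tumor 7 (next 20.7) and Tbx4 at 67.9 in tumor 5 (next 30.3). These entries rest on untransformed counts, whose long upper tail the chance rate does not cover, so the excess over 3.7 is not a measure. No transcription factor was among the 8 on the log2(value + 1) scale. On the log2(value + 1) scale, Tbr1 was at 9.49 in tumor 1 (next 4.89), Eomes at 6.73 in normal lung 2 (next 5.92) and Bmp4 at 11.53 in normal lung 4 (next 11.17). The lowest samples were Inmt at 1.99 in tumor 3 (next 6.19) and Gpc3 at 4.68 in tumor 1 (next 8.09).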

How the results depend on the processing

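The log2 differences of Tbx2, Tbx3, Tbx4 and Meox2 kept their sign in all 23 alternatives, from -5.02 to -4.62, -3.89 to -3.58, -6.87 to -6.26 and -5.04 to -4.12. That of Tbx5 ran from -5.97 to -2.19 over the 22 alternatives that gave a value for it. The latter came from edgeR on 11 samples, and the cause was not tested. Over all genes edgeR, which tested 18308 genes in 11 samples, called 3767 lower in tumors, against 5805 of 23674 in limma; the cause beyond the fewer genes and samples was not tested. The comparison of tumor titles gave 277 genes in DESeq2 and 0 to 290 with each tumor left out, the highest without tumor 7, where tumor 1 stands alone in its group. Equal totals shifted the median of all genes from 0.04 to 0.24. Among the other T-box genes DESeq2 called 2 higher and 0 lower. It gave no result for Eomes and Tbx21, the genes that limma called lower, so its 0 is no disagreement about them. In edgeR, as in the fit without normal lung 3, 1 was called lower. In edgeR, falls were called in 1 noncoding neighbour, 4 smooth muscle and 2 leukocyte markers; with a minimum mean of 10, in 1 noncoding neighbour. DESeq2 called 2 mesothelium and 3 leukocyte markers lower, and 2 anterior or central Hox genes higher. Posterior Hox calls ranged from 0 to 1 higher and 0 to 2 lower, cardiac calls from 0 to 2 each way, the 2 lower without tumor 7, and thyroid calls from 1 to 2 higher and 0 to 1 lower. For 27 named genes that are no members, 613 of 616 fits kept direction and side of the threshold. No paired analysis was possible because the 2 groups share no number in their titles. Tbx5 in tumors 1 and 3 and Tbr1 in normal lung rest on few reads.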
